A study of Homo sapiens with 21 samples.

Results

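The 49 genes described here act in mitotic entry, mitotic exit, chromosome condensation and cytokinesis, and were followed in the established human lung fibroblast line IMR90. They were chosen by name and kept where the normalised read count reached 10 in at least 3 libraries. All 49 met that minimum, as did 11579 of the 16383 genes in the deposited table. By role they comprise 2 transcription factors, 15 regulators of mitotic entry, 9 spindle proteins, 8 regulators of anaphase and mitotic exit, 10 condensin and mitotic chromosome proteins and 5 cytokinesis proteins. Poly(A) RNA was sequenced from 21 libraries in 7 groups of 3. Untreated, proliferating cells of WT genotype form the first group. The other 6 groups were irradiated, are labelled senescent, received 5 nM siRNA on days 4 and 7 after irradiation and were harvested on day 10. Their siRNAs were the non-targeting controls #3 (NT3) and #4 (NT4), both of WT genotype in the labels, or siRNAs that target CCND1, CDK4 or CDK6, or both kinases at once, which is called the dual knockdown below. CCND1 encodes cyclin D1, the partner of the kinases CDK4 and CDK6. The series text numbers the controls NT1 and NT2, whereas the sample titles give #3 and #4. Proliferating cells were neither irradiated nor transfected, so these effects cannot be told apart in any comparison with them. Only 1 siRNA name is given per target, so reagent and target effects cannot be told apart either. The radiation dose is not given in the sources used here. Whether replicates are separate cultures is not stated, so p-values measure the spread between these libraries, which may be technical.

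Most of these genes are transcribed in a wave late in the cell cycle. In resting cells the DREAM complex, built from the MuvB core, the pocket proteins RBL1 or RBL2 and E2F4, holds them down at a promoter element called CHR. When cyclin D with CDK4 or CDK6 phosphorylates the pocket proteins, the MuvB core joins MYBL2 (B-MYB) and later FOXM1, and the same promoters are activated. In fibroblasts, damage by ionizing radiation can lead to senescence, a lasting exit from the cell cycle. In RNA from whole cultures, fewer cycling cells and less RNA per cell cannot be told apart.

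Reads in the genes of the table numbered 12892442 to 21822152 per library. Knockdown left 11.8% of the control value of CCND1, 8.67% of CDK4 and 16.4% of CDK6, and the dual knockdown left 9.41% of CDK4 and 20.6% of CDK6 (exact two-sided permutation test, p = 0.0119 each, the smallest that 84 splits of 3 against 6 libraries allow). All 12 lung fibroblast markers examined, among them COL1A1, PDGFRA and DCN, were expressed in every group. Their summed value was 705522 to 891688 in the dual knockdown and 459249 to 637083 in the other libraries, and the part of this difference in the values below was not tested. COL1A1, at 186736 to 419002 per library, and COL1A2, at 146605 to 294850, weigh most in that sum, whereas FAP was at 1116 to 1526. Of 8 epithelial markers 5 had means under 10 in each group, while KRT18 was at 826 to 1995, KRT8 at 262 to 412 and EPCAM at 12.2 to 47.8 in every library, so the 8 summed to 1146 to 2408, and their part in the values below was not tested. Endothelial and immune markers summed to at most 59.5 and 46.7 in any library.

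Every member was lower in senescent controls than in proliferating cells, and most fell further when CDK4 and CDK6 were depleted together. A gene is called here when its limma adjusted p is under 0.05, fold changes are differences of log2(normalised read count + 1), and senescent controls are the 6 NT3 and NT4 libraries. Against proliferating cells, the senescent controls had 0 members higher and 49 lower, where 32.6% of all genes tested were called higher and 36.1% lower. The median member difference was -2.49 on the log2 scale and that of all genes tested was -0.03. Knockdown of CCND1 gave 0 members higher and 36 lower than senescent controls (16.7% and 14.4% of all genes tested), with a median of -0.57. Knockdown of CDK6 gave 0 higher and 41 lower (21.1% and 20.8%), with a median of -0.67. The dual knockdown gave 0 higher and 45 lower (22.5% and 21.5%), with a median of -1.63. Of the 45, 34 members were lower by more than 1 on the log2 scale, beside 611 of all 11579 genes tested. Knockdown of CDK4 alone gave 18 members higher and 2 lower (8.46% and 7.55%), with a median of 0.28. The median over all genes tested was between -0.01 and 0.00 in these 4 comparisons, which share their control libraries. NT3 replicate 3 stood apart from the other controls in several members named below, and without it the numbers called in these 5 comparisons, in the order given, were 49, 38, 41, 46 and 24. Among the irradiated groups the dual knockdown had the lowest mean for 46 members, NT3 for 2 and CCND1 knockdown for 1, while CDK4 knockdown had the highest mean for 38, NT3 for 7 and NT4 for 4. This order was not worked out for all genes tested, so these counts have no background share beside them.

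**Figure D1:**
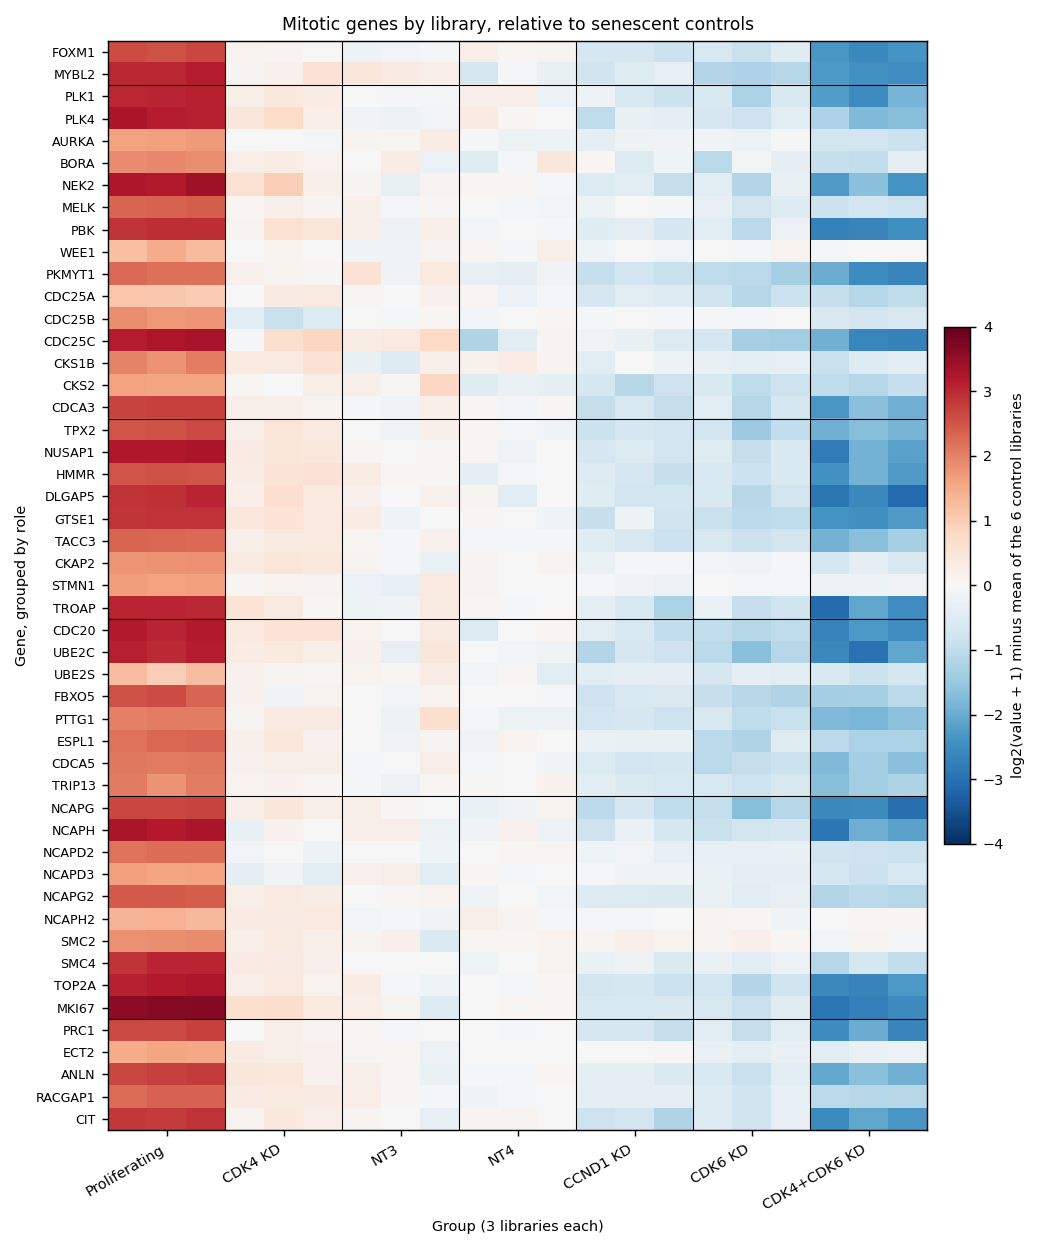
Log2(normalised read count + 1) of each of the 49 genes (rows, grouped by role) in each of the 21 libraries (columns, 3 per group), minus the gene's mean over the 6 control libraries. Proliferating libraries are red throughout, the CDK4 knockdown libraries are mostly pale red, and the dual knockdown libraries are the darkest blue in all but a few genes such as WEE1, STMN1, NCAPH2 and SMC2.

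FOXM1 and MYBL2 are the transcription factors that activate much of this wave. FOXM1 had normalised read counts of 3155, 2983 and 3243 in the proliferating libraries, 448, 477 and 484 with NT3 and 585, 546 and 554 with NT4. Its counts were 325, 321 and 284 after CCND1 knockdown, 564, 549 and 522 after CDK4 knockdown, 327, 278 and 363 after CDK6 knockdown and 100.4, 85.2 and 100.1 after the dual knockdown. The proliferating libraries lay above all others, the CCND1 and CDK6 knockdown libraries lay below every control and overlapped each other, and the dual knockdown lay below all. FOXM1 fell by 6.08-fold from proliferating cells to senescent controls, a log2 difference of -2.60 (SE 0.078, limma adjusted p = 3.96e-17). It changed by -0.73 (SE 0.078) after CCND1 knockdown, -0.68 (SE 0.078) after CDK6 knockdown and -2.42 (SE 0.078, limma adjusted p = 2.63e-15) after the dual knockdown, and it was not called after CDK4 knockdown at 0.09 (SE 0.078).

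MYBL2 counts were 1235, 1241 and 1335 in proliferating cells, 207, 192 and 183 with NT3 and 93.5, 142 and 123 with NT4. They were 87.2, 107.8 and 121 with CCND1 knockdown, 163, 169.5 and 226 with CDK4 knockdown, 67.2, 63.4 and 68.0 with CDK6 knockdown and 29.8, 27.3 and 26.0 with the dual knockdown. The control siRNAs did not overlap here: NT4 was below NT3, and the CCND1 knockdown libraries overlapped NT4 and not NT3. MYBL2 fell after CCND1 knockdown by 0.53 on the log2 scale (SE 0.13, limma adjusted p = 0.00346), a call that was lost against NT4 alone. The CDK6 knockdown libraries lay below all controls, at a log2 difference of -1.18 (SE 0.13, limma adjusted p = 2.64e-07), and the dual knockdown lay lower still at -2.41 (SE 0.13, limma adjusted p = 3.88e-12).

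**Figure D2:**
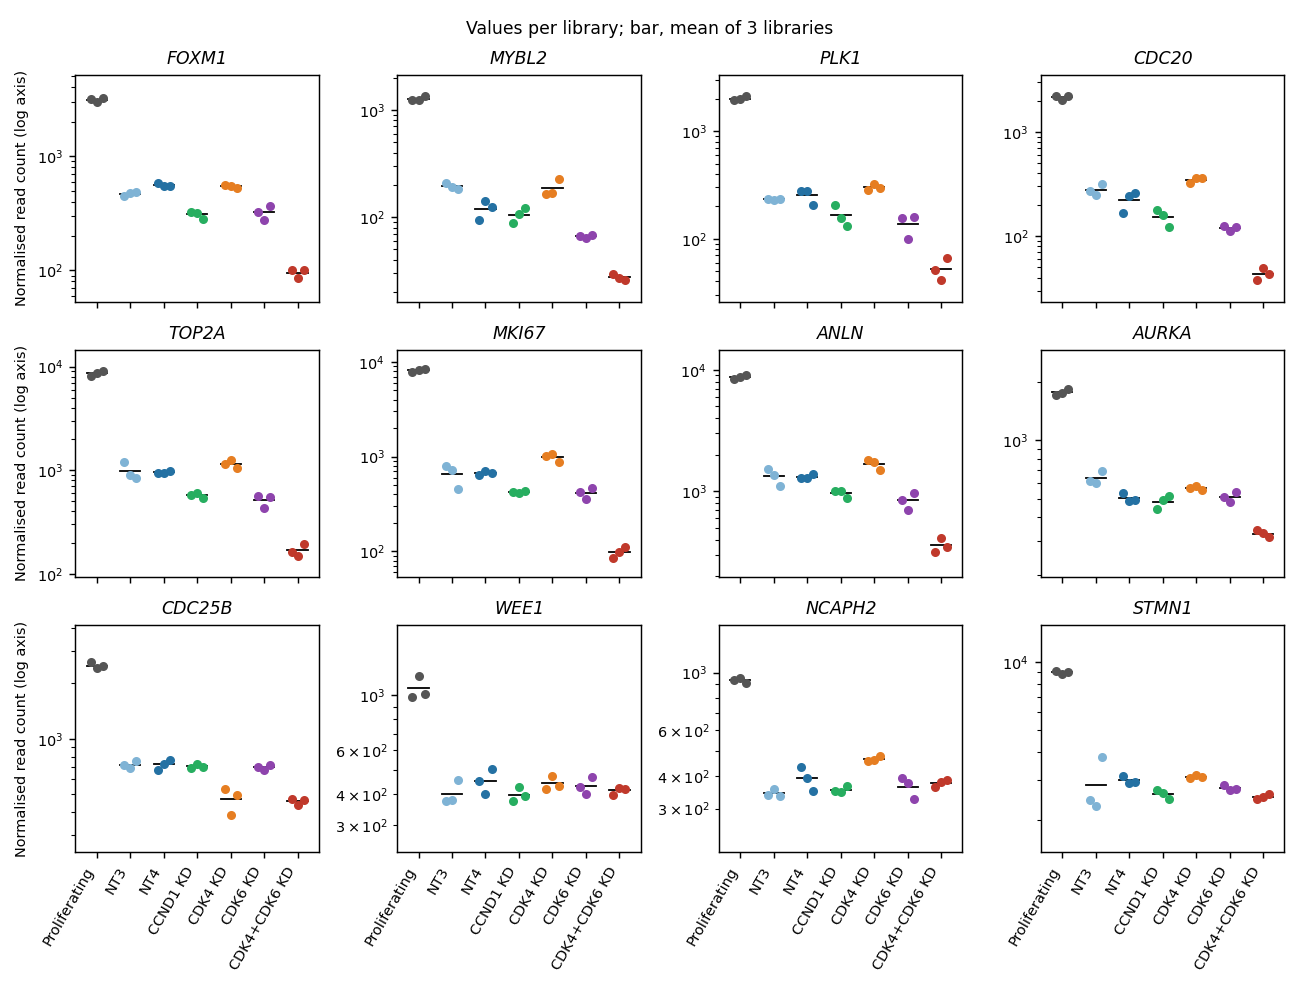
Normalised read counts (log axis) of 12 genes in each of the 7 groups, with a point for each library and a bar at the mean of 3 libraries. In the first 7 panels the dual knockdown is the lowest group by a wide gap, AURKA shows a narrower gap, CDC25B is low in the CDK4 and dual knockdowns, and in WEE1, NCAPH2 and STMN1 the irradiated groups lie close together.

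Regulators of mitotic entry did not all move alike. All 15 fell in senescent controls against proliferating cells, 9 fell after CCND1 knockdown, 11 after CDK6 knockdown and 14 after the dual knockdown. The shares of all genes tested that were called lower were, in the same order, 36.1%, 14.4%, 20.8% and 21.5%. After CDK4 knockdown 3 rose and 1 fell, beside 8.46% higher and 7.55% lower of all genes tested. PLK1, the polo-like kinase that drives centrosome maturation and mitotic entry, had counts of 1943, 1987 and 2109 in proliferating cells, 237, 227 and 232 with NT3 and 278, 278 and 204 with NT4. With knockdown of CCND1 the PLK1 counts were 207, 156 and 132, with CDK4 285, 324 and 294, with CDK6 157, 98.8 and 159 and with both kinases 50.8, 41.5 and 66.1. The dual knockdown libraries lay below all others and the CCND1 knockdown libraries overlapped the controls in 1 library. PLK1 fell in senescent controls by 8.31-fold (log2 -3.06 (SE 0.16, limma adjusted p = 1.81e-13)), in CDK6 knockdown by 1.78-fold and in the dual knockdown by 4.58-fold (log2 -2.20 (SE 0.16, limma adjusted p = 3.29e-10)). Its fall after CCND1 knockdown, -0.57 (SE 0.16, limma adjusted p = 0.00889), was lost without CCND1 knockdown replicate 3.

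AURKA, the Aurora kinase of spindle poles that activates PLK1, moved less. Its counts were 1723, 1753 and 1846 in proliferating cells, 615, 601 and 698 with NT3, 536, 488 and 489.6 with NT4 and 444, 489.7 and 515 with CCND1 knockdown. They were 568, 578 and 554 with CDK4 knockdown, 512, 483 and 539 with CDK6 knockdown and 342, 329.8 and 314 with the dual knockdown. Single knockdown libraries lay within or near the range of the controls, whereas the 3 dual knockdown libraries lay below all others. The dual knockdown retained 57.6% of the control mean of AURKA (log2 -0.78 (SE 0.064, limma adjusted p = 2.57e-09)), against 21.8% for PLK1. CCND1 knockdown was called lower for AURKA, at -0.23 (SE 0.064, limma adjusted p = 0.00879), a call lost against NT4 alone (-0.07), with only the groups compared in the fit and without CCND1 knockdown replicate 1 (-0.17). CDK6 knockdown alone was not called for AURKA, at -0.15 (SE 0.064, limma adjusted p = 0.0683) with a 95% interval of -0.28 to -0.01, and it passed the threshold against NT3 alone (-0.32) and without NT3 replicate 2 (-0.17). BORA, the cofactor through which AURKA reaches PLK1, fell only by 0.76 on the log2 scale in the dual knockdown (SE 0.21), a call lost under quantile normalization.

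The opposing enzymes that set the inhibitory phosphorylation of CDK1 did not move as a block. WEE1, a kinase that places that mark, had counts of 984, 1198 and 1011 in proliferating cells, 376, 377 and 454 with NT3, 451, 400.0 and 504 with NT4 and 374, 428 and 394 with CCND1 knockdown. The WEE1 counts were 421, 472 and 432 with CDK4 knockdown, 426, 401 and 468 with CDK6 knockdown and 398, 425 and 420.4 with the dual knockdown. All irradiated groups overlapped, and the dual knockdown differed from controls by -0.04 (SE 0.086) on the log2 scale with a 95% interval of -0.21 to 0.14. PKMYT1, the membrane-bound kinase that places the same inhibitory mark, fell by 5.22-fold in the dual knockdown (log2 -2.38 (SE 0.16, limma adjusted p = 9.2e-11)). Of the phosphatases that remove the mark, CDC25A fell after CCND1 knockdown, CDK6 knockdown and the dual knockdown, by 0.55, 0.94 and 1.03 on the log2 scale. CDC25C, the low member of this set at 4 to 358 reads per library, had counts of 288, 304 and 317 in proliferating cells, 39.5, 41.9 and 55.8 with NT3, 13.3, 23.4 and 34.6 with NT4 and 7.73, 4.37 and 4.00 in the dual knockdown. The dual knockdown libraries of CDC25C lay below all controls, at -2.41 (SE 0.27, limma adjusted p = 2.42e-07), and counting error is large at these levels.

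CDC25B, the phosphatase held to start CDK1 activation at centrosomes, was low in the CDK4 and dual knockdowns and not in the CDK6 knockdown. Its counts were 2601, 2429 and 2475 in proliferating cells, 715, 692 and 759.7 with NT3, 672, 731 and 769 with NT4 and 694, 729.8 and 701 with CCND1 knockdown. CDC25B counts were 532, 387 and 496 with CDK4 knockdown, 702, 678 and 717 with CDK6 knockdown and 470.2, 438 and 462 with the dual knockdown. The CDK4 and dual knockdown libraries lay below every other irradiated library and overlapped each other, and the CDK6 knockdown libraries lay among the controls. CDC25B fell by 1.54-fold after CDK4 knockdown (log2 -0.63 (SE 0.075, limma adjusted p = 4.89e-06)) and by 1.58-fold after the dual knockdown (log2 -0.66 (SE 0.075, limma adjusted p = 3.2e-07)). CDK6 knockdown differed from controls by -0.05 (SE 0.075) and was not called. Set against each other, CDK6 knockdown was higher than CDK4 knockdown by 0.58 (SE 0.086, limma adjusted p = 1.78e-05).

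Other regulators of entry fell to different depths in the dual knockdown. NEK2, a centrosome-separating kinase, had counts of 651, 620.4 and 725 in proliferating cells, 73.7, 54.6 and 74.0 with NT3, 72.3, 70.1 and 64.4 with NT4, 104.2, 136 and 78.5 with CDK4 knockdown and 13.2, 20.8 and 12.0 with the dual knockdown. Its CDK4 knockdown libraries lay above all controls and its dual knockdown libraries below them, at a log2 difference of -2.11 (SE 0.20, limma adjusted p = 3.33e-08). PBK, a mitotic kinase, kept 15.9% of its control mean in the dual knockdown, CDCA3, a trigger of WEE1 degradation, kept 25.2% and PLK4, the kinase of centriole duplication, kept 33.0%. MELK, another cell-cycle kinase, kept 56.5%. The CDK-binding subunits CKS1B and CKS2 kept 64.4% and 46.6%. For CDC25A, CKS1B, CKS2, BORA and MELK the dual knockdown was not called against CDK6 knockdown alone, with log2 differences of -0.10, -0.28, -0.21, -0.25 and -0.29.

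Spindle and microtubule proteins fell together in the dual knockdown, with STMN1 set apart. In senescent controls all 9 fell against proliferating cells, 7 fell after CCND1 knockdown, 7 after CDK6 knockdown and 8 after the dual knockdown. The shares of all genes tested that were called lower were, in the same order, 36.1%, 14.4%, 20.8% and 21.5%. After CDK4 knockdown 7 rose, beside 8.46% of all genes tested. DLGAP5, which stabilizes kinetochore fibres, had counts of 1800.0, 1823 and 1991 in proliferating cells, 269.9, 239 and 268 with NT3, 257, 180.0 and 240.5 with NT4 and 171, 142 and 142 with CCND1 knockdown. DLGAP5 counts were 289.8, 382 and 312 with CDK4 knockdown, 159, 110.9 and 141 with CDK6 knockdown and 30.9, 39.3 and 27.03 with the dual knockdown. The CDK4 knockdown libraries lay above all 6 controls, the CCND1 and CDK6 knockdown libraries below them, and the dual knockdown far below. DLGAP5 had the largest fall of all 49 genes in the dual knockdown, 7.30-fold (log2 -2.87 (SE 0.13, limma adjusted p = 4.39e-13)). TROAP, NUSAP1, HMMR and GTSE1, which bind or organize spindle microtubules, kept 16.6%, 21.1%, 21.3% and 18.9% of their control means. TPX2, which activates AURKA on the spindle, kept 27.9%, TACC3, which bundles kinetochore fibres, kept 32.4%, and CKAP2, a spindle-associated protein, kept 66.6%.

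STMN1 encodes stathmin, a protein that destabilizes microtubules in interphase and is switched off by phosphorylation in mitosis. Its counts were 9099, 8859 and 9017 in proliferating cells, 2439, 2308 and 3796 with NT3, 3134, 2901 and 2934 with NT4 and 2724, 2635 and 2464 with CCND1 knockdown. STMN1 counts were 3056, 3157 and 3095 with CDK4 knockdown, 2857, 2709 and 2733 with CDK6 knockdown and 2467, 2522 and 2616 with the dual knockdown. NT3 replicate 3 stood above the other irradiated libraries, and the dual knockdown lay above the other NT3 libraries and below all NT4 libraries. STMN1 fell from proliferating cells to senescent controls, at -1.64 (SE 0.096, limma adjusted p = 1.46e-12), and was not called in the dual knockdown at -0.18 (SE 0.096), with a 95% interval of -0.38 to 0.01. Without NT3 replicate 2 or under quantile normalization the dual knockdown passed the threshold for STMN1.

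Genes of anaphase and mitotic exit fell after CDK6 knockdown and after the dual knockdown in 8 of 8 cases. After CCND1 knockdown 7 of the 8 fell and after CDK4 knockdown 1 rose. Among all genes tested, 20.8%, 21.5% and 14.4% were called lower after CDK6, dual and CCND1 knockdown, and 8.46% higher after CDK4 knockdown. CDC20, the activator of the anaphase-promoting complex (APC/C), had counts of 2212, 2042 and 2227 in proliferating cells, 273, 250.4 and 314 with NT3, 168, 243 and 259.7 with NT4 and 179.7, 159 and 124 with CCND1 knockdown. CDC20 counts were 322, 360.3 and 365 with CDK4 knockdown, 125, 110.9 and 123 with CDK6 knockdown and 37.5, 49.1 and 43.0 with the dual knockdown. The order of the groups ran from CDK4 knockdown, above every control, down to the dual knockdown, below every other library, and the CCND1 knockdown overlapped 1 NT4 library. CDC20 fell by 2.06-fold after CDK6 knockdown and by 5.64-fold after the dual knockdown (log2 -2.50 (SE 0.13, limma adjusted p = 2.42e-12)). UBE2C, the ubiquitin-conjugating enzyme that starts chains for the APC/C, had counts of 1263, 1158 and 1276 in proliferating cells, 162, 113.5 and 197 with NT3, 142, 133 and 129.8 with NT4 and 62.8, 90.7 and 81.5 with CCND1 knockdown. Its remaining counts were 178, 191 and 168 with CDK4 knockdown, 67.2, 44.7 and 65.2 with CDK6 knockdown and 23.2, 17.5 and 33.0 with the dual knockdown. The CCND1, CDK6 and dual knockdown libraries of UBE2C all lay below the 6 controls, and the dual knockdown did not overlap either single knockdown. UBE2C fell by 2.45-fold after CDK6 knockdown and by 5.85-fold after the dual knockdown (log2 -2.55 (SE 0.18, limma adjusted p = 2.37e-10)).

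UBE2S, which extends the chains that UBE2C starts, fell less in the dual knockdown, by 0.73 on the log2 scale, and kept 59.9% of its control mean. PTTG1 (securin) kept 28.9%, and ESPL1 (separase), the protease that securin restrains, kept 43.6%. ESPL1 counts were 117, 115.2 and 114.8 with CCND1 knockdown, 68.2, 60.6 and 101.6 with CDK6 knockdown and 68.4, 59.0 and 59.1 with the dual knockdown, against 143, 129 and 154 with NT3 and 129, 157 and 142 with NT4. CDK6 and dual knockdown libraries overlapped for ESPL1 and both lay below the CCND1 knockdown. FBXO5, an inhibitor of the APC/C, kept 47.0% after CDK6 knockdown and 41.5% after the dual knockdown, and the step between them was not called at -0.17 (SE 0.12). CDCA5 (sororin), which protects sister chromatid cohesion, kept 32.9% in the dual knockdown, and TRIP13, an enzyme of the spindle checkpoint, kept 36.9%.

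The RNA of condensin subunits was affected unevenly. Condensin I holds NCAPD2, NCAPG and NCAPH, condensin II holds NCAPD3, NCAPG2 and NCAPH2, and both share the ATPases SMC2 and SMC4. NCAPG counts were 1644, 1648 and 1671 in proliferating cells, 300.0, 262 and 258 with NT3, 212, 229.7 and 283 with NT4 and 124, 160.0 and 125 with CCND1 knockdown. NCAPG counts were 308, 349 and 300.3 with CDK4 knockdown, 132, 78.3 and 116 with CDK6 knockdown and 41.9, 42.6 and 31.0 with the dual knockdown. The CCND1 and CDK6 knockdown libraries of NCAPG overlapped each other below the controls, the CDK4 knockdown lay just above the controls, and the dual knockdown lay below all. NCAPG fell by 6.56-fold in the dual knockdown (log2 -2.71 (SE 0.14, limma adjusted p = 2.42e-12)) and NCAPH by 5.02-fold (log2 -2.33 (SE 0.18, limma adjusted p = 8.17e-10)), while NCAPD2 fell by 1.78-fold. NCAPH2, the kleisin subunit of condensin II, had counts of 935, 952 and 909 in proliferating cells, 338, 357 and 335 with NT3, 432, 394 and 351 with NT4 and 351, 348 and 366 with CCND1 knockdown. NCAPH2 counts were 458, 463 and 479 with CDK4 knockdown, 391.9, 376 and 327 with CDK6 knockdown and 364, 381 and 385 with the dual knockdown. The CDK4 knockdown libraries of NCAPH2 lay above all other irradiated libraries, and the dual knockdown lay within the range of the controls. NCAPH2 differed from controls by 0.04 (SE 0.069) in the dual knockdown, with a 95% interval of -0.10 to 0.18, and rose after CDK4 knockdown at 0.35 (SE 0.069, limma adjusted p = 0.00124).

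NCAPG2 and NCAPD3, the other subunits of condensin II, fell by 2.16-fold and 1.67-fold in the dual knockdown. NCAPD3 counts were 495, 514 and 328 with NT3, 466, 424 and 443 with NT4, 342, 397 and 332 with CDK4 knockdown, 367, 338 and 344 with CDK6 knockdown and 268, 245 and 281 with the dual knockdown. NT3 replicate 3 was the lowest control for NCAPD3 and lay below all CDK4 and CDK6 knockdown libraries, while the dual knockdown libraries lay below all controls. Of the shared ATPases, SMC4 kept 52.4% of its control mean in the dual knockdown and SMC2 kept 97.6%. SMC2 differed by -0.02 (SE 0.11) with a 95% interval of -0.24 to 0.21. NT3 replicate 3 was the lowest control for SMC2, at 330.1 against 521 to 571 in the other 5, and without it SMC2 was called lower in the dual knockdown, at -0.14 (limma adjusted p = 0.0441). Relative to proliferating cells, the dual knockdown held 2.08% of NCAPH, 2.33% of NCAPG and 12.1% of NCAPD2, against 19.7% of NCAPD3, 8.50% of NCAPG2 and 40.4% of NCAPH2.

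**Figure D3:**
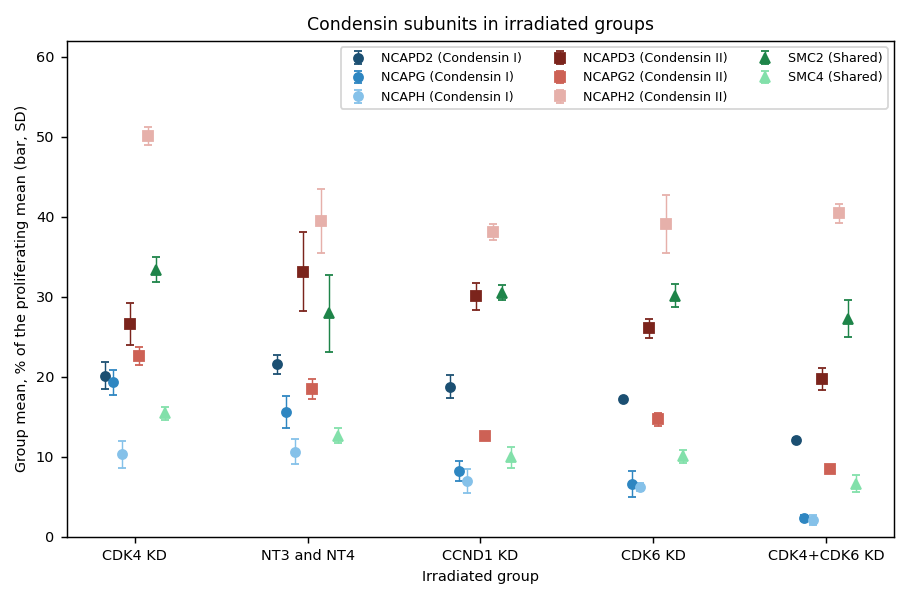
Mean normalised read count of the 8 condensin subunits in 5 irradiated groups, as a percentage of the mean in proliferating cells, with SD bars over 3 libraries (6 for NT3 and NT4 together). NCAPG and NCAPH drop to between 2 and 3% in the dual knockdown, while NCAPH2 and SMC2 stay near their level in the controls.

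TOP2A, the topoisomerase that untangles sister chromatids, had counts of 8149, 8666 and 9110.0 in proliferating cells, 1193, 905 and 849.5 with NT3, 948, 939 and 989.7 with NT4 and 579.6, 598 and 535 with CCND1 knockdown. TOP2A counts were 1151, 1265 and 1062 with CDK4 knockdown, 565, 429.6 and 554 with CDK6 knockdown and 161, 149.6 and 195 with the dual knockdown. The CDK4 knockdown overlapped the controls for TOP2A, the CCND1 and CDK6 knockdowns overlapped each other below the controls, and the dual knockdown lay below all. TOP2A fell by 8.94-fold from proliferating cells to senescent controls (log2 -3.16 (SE 0.10, limma adjusted p = 1.06e-16)) and by a further 5.73-fold in the dual knockdown (log2 -2.52 (SE 0.10, limma adjusted p = 5.6e-14)). MKI67, which encodes the proliferation antigen Ki-67 that coats mitotic chromosomes, had counts of 7794, 8278 and 8417 in proliferating cells, 793, 717 and 459 with NT3, 647, 698 and 679 with NT4 and 422, 417 and 433 with CCND1 knockdown. MKI67 counts were 1018, 1076 and 869.6 with CDK4 knockdown, 419, 355 and 469 with CDK6 knockdown and 86.1, 98.3 and 111.1 with the dual knockdown. NT3 replicate 3 was the lowest control for MKI67 and lay among the CDK6 knockdown libraries, all 3 CDK4 knockdown libraries lay above the controls, and the dual knockdown lay below all. MKI67 fell most of the 49 from proliferating cells to senescent controls, 12.4-fold (log2 -3.63 (SE 0.12, limma adjusted p = 2.32e-16)), and fell by 6.64-fold in the dual knockdown (log2 -2.73 (SE 0.12, limma adjusted p = 3.29e-13)). The dual knockdown held 1.21% of the proliferating mean of MKI67 and 1.95% of that of TOP2A.

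Cytokinesis genes fell in 5 of 5 cases after CDK6 knockdown and after the dual knockdown, and in 4 after CCND1 knockdown. The shares of all genes tested that were called lower were, in the same order, 20.8%, 21.5% and 14.4%. After CDK4 knockdown 3 cytokinesis genes rose, beside 8.46% of all genes tested. PRC1, the microtubule bundler of the central spindle, had counts of 3663, 3652 and 3874 in proliferating cells, 619.8, 560.5 and 570.4 with NT3, 593, 567 and 583 with NT4 and 362, 368 and 302 with CCND1 knockdown. PRC1 counts were 589, 690.2 and 634 with CDK4 knockdown, 421, 301 and 422 with CDK6 knockdown and 101.5, 146 and 93.1 with the dual knockdown. The CDK4 knockdown overlapped the controls for PRC1, and the dual knockdown lay below all others at a log2 difference of -2.37 (SE 0.12, limma adjusted p = 1.12e-12). ANLN (anillin), the scaffold of the contractile ring, had counts of 8417, 8740.0 and 9134 in proliferating cells, 1529, 1366 and 1104 with NT3, 1279, 1286 and 1382 with NT4 and 1003, 998 and 882 with CCND1 knockdown. ANLN counts were 1794, 1756 and 1498 with CDK4 knockdown, 855, 704 and 972 with CDK6 knockdown and 316, 415 and 347 with the dual knockdown. For ANLN the CDK4 knockdown overlapped the controls, the CCND1 and CDK6 knockdowns lay below them and the dual knockdown lay below all, at -1.88 (SE 0.10, limma adjusted p = 4.69e-12). CIT (citron kinase), which acts at the midbody, had counts of 243, 225 and 176 with NT3, 242, 243 and 220.3 with NT4, 124, 131 and 97.2 with CCND1 knockdown, 156, 128 and 178 with CDK6 knockdown and 37.5, 52.4 and 44.0 with the dual knockdown. The CDK6 knockdown overlapped the lowest NT3 library for CIT and the CCND1 knockdown did not overlap the controls. RACGAP1, a subunit of centralspindlin, kept 46.0% of its control mean in the dual knockdown and CIT kept 19.9%. ECT2, the exchange factor that activates RhoA at the cell equator, kept 80.8% in the dual knockdown and 81.3% after CDK6 knockdown, a step of -0.01 (SE 0.076) that was not called.

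Knockdown of CCND1 or of CDK6 alone lowered genes of all 6 roles. After CCND1 knockdown the largest falls were those of CIT, -0.93 (SE 0.13, limma adjusted p = 9.76e-06), and NCAPG, -0.91 (SE 0.14, limma adjusted p = 4.28e-05). After CDK6 knockdown they were those of UBE2C, -1.29 (SE 0.18, limma adjusted p = 5.61e-06), and NCAPG, -1.26 (SE 0.14, limma adjusted p = 3.46e-07). Called falls of more than 1 on the log2 scale were found in 8 members after CDK6 knockdown and in 0 after CCND1 knockdown. Among all 11579 genes tested such falls were also more frequent after CDK6 knockdown, 345 against 131. Set against CCND1 knockdown directly, CDK6 knockdown had 0 members higher and 6 lower, beside 5.43% and 6.78% of all genes tested, and a median member difference of -0.12. The 6 were MYBL2, ESPL1, MELK, FBXO5, CDC25A and ECT2, of which MYBL2 and ESPL1 had the largest falls and the other 4 are named after their values were seen. MYBL2 was lower by 0.65 on the log2 scale (SE 0.15, limma adjusted p = 0.00511) and ESPL1 by 0.62 (SE 0.14, limma adjusted p = 0.0061). The call was lost for CDC25A in 12 of 16 alternatives and for FBXO5 in 8 of 16. Without CCND1 knockdown replicate 2 or CDK6 knockdown replicate 3 the count was 4.

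**Figure D4:**
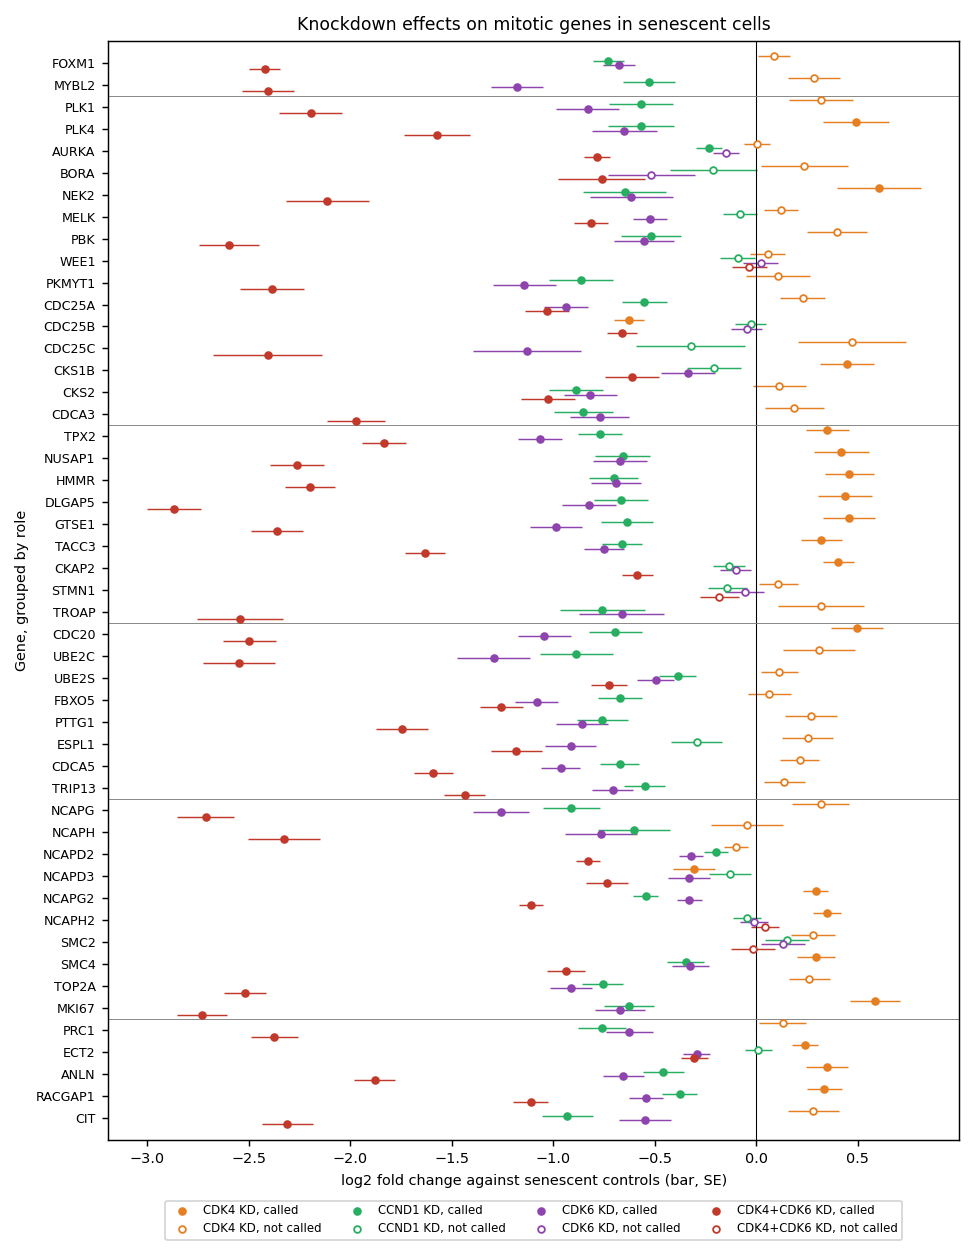
Log2 fold change of each of the 49 genes (grouped by role) after the 4 knockdowns against the 6 senescent control libraries, with bars of 1 standard error and filled points where the limma adjusted p is under 0.05. Points of the dual knockdown lie farthest left in most genes, and CCND1 and CDK6 knockdowns lie mostly between -1.3 and 0. CDK4 knockdown lies mostly right of 0, with CDC25B and NCAPD3, and by less NCAPD2 and NCAPH, left of 0.

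CDK4 knockdown alone stood apart in direction. The 18 members that rose were led by NEK2, 0.60 (SE 0.20, limma adjusted p = 0.0482), and MKI67, 0.58 (SE 0.12, limma adjusted p = 0.00227), and included CDC20 at 0.49, PLK4 at 0.49, HMMR at 0.46, GTSE1 at 0.46 and ANLN at 0.35. FOXM1, MYBL2, PLK1, AURKA, UBE2C and TOP2A were not called, with log2 differences of 0.09, 0.28, 0.32, 0.00, 0.31 and 0.26. The 2 members that fell were CDC25B, -0.63 (SE 0.075, limma adjusted p = 4.89e-06), and NCAPD3, -0.31 (SE 0.10, limma adjusted p = 0.045). The number of calls depended on single libraries: it was 12 without CDK4 knockdown replicate 1, 6 without replicate 2 and 12 without replicate 3, against 20 with all, and 11 against NT3 alone or with only the groups compared in the fit. The median member difference stayed between 0.22 and 0.30 in all of these alternatives. The call of NEK2 was lost without CDK4 knockdown replicate 1 or 2 and in 10 other alternatives, that of NCAPD3 in 13 alternatives, and that of CDC25B in none. PLK4 kept its call in 11 of 21 alternatives, ANLN in 16, CDC20 in 17, HMMR in 18, GTSE1 in 19 and MKI67 in all 21.

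Against CDK4 knockdown, which shares no library with it, CDK6 knockdown had 1 member higher and 43 lower (17.5% and 17.3% of all genes tested), with a median of -0.96. The member that was higher was CDC25B. The largest falls were those of CDC25C, -1.60 (SE 0.31, limma adjusted p = 0.00032), and UBE2C, -1.60 (SE 0.21, limma adjusted p = 2.64e-06). The members not called were AURKA, WEE1, STMN1, NCAPD3 and SMC2, with log2 differences between -0.17 and -0.03.

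Adding CDK4 depletion to CDK6 depletion lowered most of the genes again. The dual knockdown had 0 members higher and 36 lower than CDK6 knockdown (6.05% and 6.94% of all genes tested), with a median of -0.88. Of the 36, 22 members were lower by more than 1 on the log2 scale, beside 147 of all 11579 genes tested. MKI67 was lower by 4.17-fold (log2 -2.06 (SE 0.14, limma adjusted p = 2.67e-09)) and DLGAP5 by 4.13-fold (log2 -2.04 (SE 0.15, limma adjusted p = 7.68e-09)). FOXM1 was lower by 3.35-fold and MYBL2 by 2.34-fold. Calls were made for 2 of 2 transcription factors, 9 of 15 regulators of entry, 8 of 9 spindle proteins, 5 of 8 anaphase and exit genes, 8 of 10 chromosome proteins and 4 of 5 cytokinesis genes. The 13 members not called included the 4 that were not called against the controls, WEE1, STMN1, NCAPH2 and SMC2.

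The fall in the dual knockdown was larger than the sum of the single effects for most members. This departure is the dual knockdown difference minus the CDK4 and CDK6 knockdown differences, each against the same senescent controls, on the log2 scale. It was above 0 and called for 0 members and below 0 and called for 35, beside 2.63% and 3.71% of all genes tested, with a median of -1.16 over the members and 0.00 over all genes tested. MKI67 departed by -2.64 (SE 0.19, limma adjusted p = 2.16e-08), a 6.25-fold lower value than the sum, and DLGAP5 by -2.48 (SE 0.20, limma adjusted p = 8.33e-08). For MKI67 the parts were 0.58 after CDK4 knockdown, -0.67 after CDK6 knockdown and -2.73 after both. FOXM1 departed by -1.83 (SE 0.12), MYBL2 by -1.51 (SE 0.20), PLK1 by -1.68 (SE 0.24), CDC20 by -1.95 (SE 0.20) and TOP2A by -1.87 (SE 0.16). Of the 14 members not called, CDC25B departed by 0.01 with a 95% interval of -0.22 to 0.25 and NCAPD3 by -0.10 with an interval of -0.42 to 0.23. CDC25A, FBXO5, CKS2 and ESPL1 were not called either, at -0.32, -0.24, -0.32 and -0.52. The count was 34 to 40 when 1 of the 15 libraries it uses was left out. The labels give 5 nM siRNA for the single and dual knockdowns alike. CDK6 left was 16.4% of the control value after CDK6 knockdown and 20.6% after the dual knockdown. The part of siRNA load and of depletion in the departures was not tested.

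**Figure D5:**
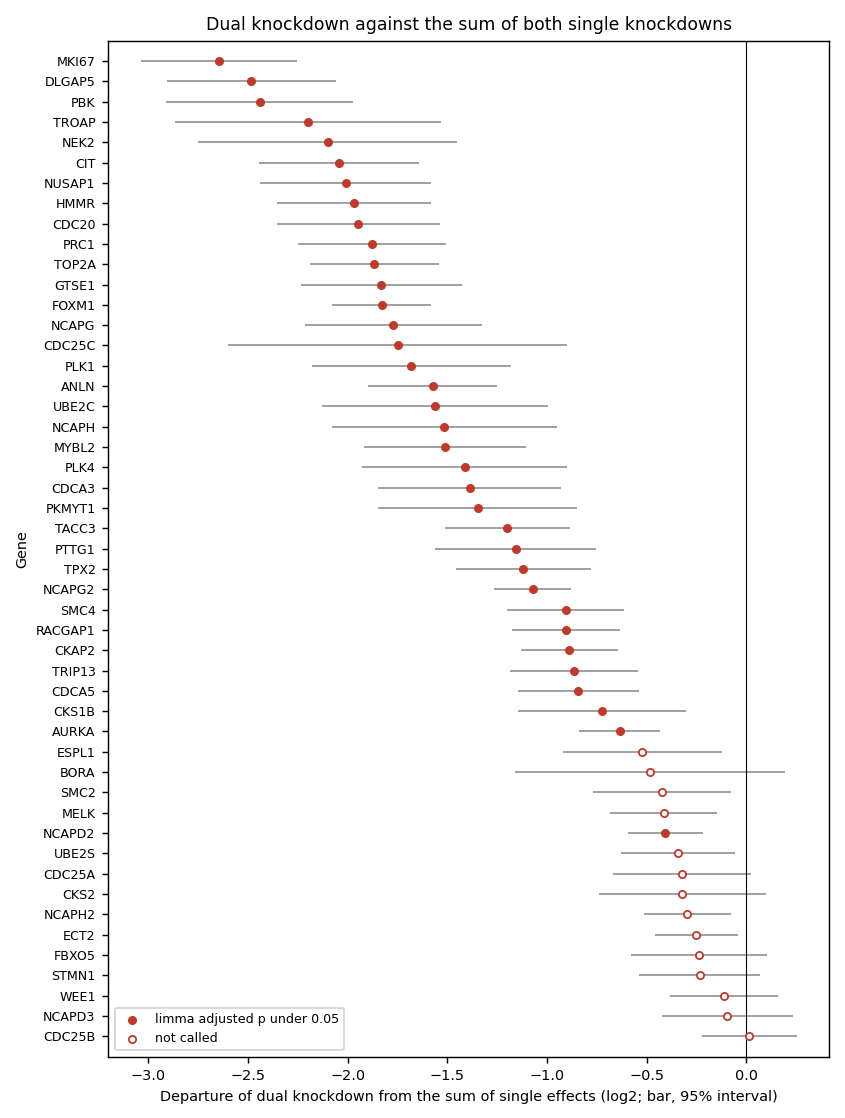
Dual knockdown difference minus both single knockdown differences (CDK4 and CDK6, log2) for each of the 49 genes in order of size, with bars of the 95% interval and filled points where the limma adjusted p is under 0.05. MKI67 lies lowest at -2.64, 35 genes are filled, and CDC25B lies at 0.01.

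Promoter sequence was examined because the members move together and many are described as bound through CHR and CCAAT elements. RefSeq promoter windows of GRCh38.p14, from 250 bases before to 50 bases after an annotated start, were found for 39 of the 49 members. Only the first window listed for each gene was searched, so a match at another start of the same gene would be missed. The letters searched on both strands were TTTGAA or TTCGAA for CHR, CCAAT for the CCAAT box, and TTTGGCGC, TTTCCCGC, TTTGGCGG or TTTCCCGG for E2F sites. A CHR match occurred in 25 of 39 member promoters (64.1%), in 11.4% of 9397 promoters of genes tested and in 16.6% of all 27305 promoters. CCAAT occurred in 23 members (59%), in 36.5% of promoters of genes tested and in 35.7% of all. An E2F match occurred in 4 members (10.3%), in 7.07% of promoters of genes tested and in 4.35% of all. Both CHR and CCAAT occurred in 17 members (43.6%), in 4.77% of promoters of genes tested and in 6.58% of all. The median dual knockdown difference was -1.88 for the 25 members with a CHR match and -1.14 for the 14 without, and this is a description of a list chosen by name. MYBL2 and CDC25C, with no match to any of these letters in the window searched, had dual knockdown differences of -2.41 and -2.41. BORA and ECT2, with 2 CHR matches each, had -0.76 and -0.31.

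Windows are printed for the 3 members with the largest fall in the dual knockdown and the 2 with the smallest change, among those with a window, to show where the letters lie. They are DLGAP5 at chr14:55191536-55191835 on the minus strand, MKI67 at chr10:128126374-128126673 on the minus strand, NCAPG at chr4:17810729-17811028 on the plus strand, SMC2 at chr9:104094059-104094358 on the plus strand and STMN1 at chr1:25906370-25906669 on the minus strand, all upstream of and into the first transcribed bases of the gene named. Each is written 5′ to 3′ on the gene's strand, with matches in capitals.
DLGAP5: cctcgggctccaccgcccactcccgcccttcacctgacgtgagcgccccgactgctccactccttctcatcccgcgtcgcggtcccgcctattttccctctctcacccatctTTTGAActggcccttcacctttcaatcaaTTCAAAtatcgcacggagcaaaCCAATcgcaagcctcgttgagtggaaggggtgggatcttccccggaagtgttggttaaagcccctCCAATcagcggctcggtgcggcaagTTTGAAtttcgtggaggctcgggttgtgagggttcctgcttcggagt
MKI67: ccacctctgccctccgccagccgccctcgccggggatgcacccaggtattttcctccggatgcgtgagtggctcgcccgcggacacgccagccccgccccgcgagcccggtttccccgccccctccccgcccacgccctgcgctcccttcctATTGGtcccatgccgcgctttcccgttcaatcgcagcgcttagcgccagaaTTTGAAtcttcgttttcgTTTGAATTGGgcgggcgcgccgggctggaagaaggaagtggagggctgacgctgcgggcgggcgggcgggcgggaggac
NCAPG: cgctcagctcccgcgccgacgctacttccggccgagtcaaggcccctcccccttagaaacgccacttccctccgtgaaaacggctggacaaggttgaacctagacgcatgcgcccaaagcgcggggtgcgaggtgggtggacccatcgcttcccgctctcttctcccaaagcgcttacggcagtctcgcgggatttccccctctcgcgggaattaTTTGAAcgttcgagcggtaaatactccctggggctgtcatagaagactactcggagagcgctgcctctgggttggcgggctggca
SMC2: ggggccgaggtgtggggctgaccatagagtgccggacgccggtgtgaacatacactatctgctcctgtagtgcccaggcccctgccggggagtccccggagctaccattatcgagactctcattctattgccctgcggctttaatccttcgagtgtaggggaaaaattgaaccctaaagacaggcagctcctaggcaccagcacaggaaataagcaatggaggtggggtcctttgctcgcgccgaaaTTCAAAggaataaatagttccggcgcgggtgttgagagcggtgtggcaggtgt
STMN1: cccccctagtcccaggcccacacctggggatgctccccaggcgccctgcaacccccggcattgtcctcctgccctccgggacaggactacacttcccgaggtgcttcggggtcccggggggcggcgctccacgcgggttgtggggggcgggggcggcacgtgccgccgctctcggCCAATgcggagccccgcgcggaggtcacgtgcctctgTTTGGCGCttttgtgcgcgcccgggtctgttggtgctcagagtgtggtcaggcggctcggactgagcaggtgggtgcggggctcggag
DLGAP5 has 3 CHR and 2 CCAAT matches, and its last CHR match starts at position 4 relative to the start site. MKI67 has CHR matches starting at positions -47 and -29 and CCAAT matches on the opposite strand at positions -98 and -24, and the CHR match at -29 shares its last base with the CCAAT match at -24. NCAPG has 1 CHR match, at position -35. SMC2 also has 1, on the opposite strand at position -3, and its dual knockdown difference of -0.02 was called only without NT3 replicate 3. STMN1 has 1 CCAAT match and 1 E2F match and no CHR match. A match is a description of letters and not evidence of binding.

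Other genes of the same machinery were examined as lists. CDK1 and the mitotic cyclins CCNA2, CCNB1, CCNB2 and CCNF fell in the dual knockdown in 5 of 5 cases, and CDK1, the kinase that drives mitosis, changed by -2.43 on the log2 scale. Of 8 chromosomal passenger and mitotic kinesin genes 7 fell, with BIRC5 (survivin) at -3.08 and KIF20A at -2.33, and INCENP was not called at -0.37. Of all genes tested, 22.5% were called higher and 21.5% lower in the dual knockdown. Of 14 APC/C subunits tested 6 rose and 1 fell in that comparison, with differences between -0.19 and 0.37. Of 11 MuvB, E2F4, DP and pocket protein genes 1 rose and 6 fell, the largest fall being that of RBL1 at -0.82, with RB1 at -0.02 and RBL2 at 0.20 not called. In senescent controls against proliferating cells the lists fell in 5 of 5, 8 of 8, 8 of 14 and 10 of 11 cases, and 0, 0, 2 and 1 genes rose, beside 36.1% lower and 32.6% higher of all genes tested.

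The control siRNAs differed from each other in a few members, in shares no larger than those of all genes tested. NT4 against NT3 had 1 member higher, FOXM1 at 0.26 (SE 0.09, limma adjusted p = 0.0377), and 6 lower (14.7% and 13.1% of all genes tested), with a median of -0.03. CKS2 was lower by 0.72 on the log2 scale (SE 0.15, limma adjusted p = 0.00124) and CDC25C by 0.99 (SE 0.31, limma adjusted p = 0.0199). CKS2 counts were 427, 375 and 658 with NT3 and 264, 306 and 288 with NT4, and NT3 replicate 3 was the highest of the 6. The other members that were lower were MYBL2, AURKA, PKMYT1 and UBE2S. With only NT3 and NT4 in the fit 1 member was called, and without NT4 replicate 1 the count was 4.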

How the data were processed

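Poly(A) RNA of 21 IMR90 libraries was measured. Per the submitters' processing notes, Trimmomatic 0.38.1, HISAT2 2.2.1, featureCounts 2.0.3, FastQC 0.74, MultiQC and DESeq2 2.11.40.8 were used, with the builds hg38 and GRCh38. The roles of these tools, the annotation and the strand setting are not given in the sources used here, so values of overlapping or near-identical genes are uncertain. The values are deposited as normalised counts, a signal the authors obtained by dividing the read count of a gene by the library's size factor. Multiplied back, 100% of values were whole reads within 0.05 reads, a check that is weak for 1 dual knockdown library, whose size factor of 0.9989 is close to 1.

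Genes that reached a value of 10 in 3 libraries or more (11579) were fitted on the scale log2(value + 1) by limma 3.58.1 under R 4.3.3, in a model of 7 group means whose variance trend covered all genes (14 residual degrees of freedom). The two-sided p-values of each of 10 comparisons were adjusted over all tested genes (Benjamini-Hochberg), and 0.05 was the threshold. The procedure was run on simulated data for the dual knockdown comparison only, with the same spread set for every gene. That run does not check the calls made in the real data. Columns carry the group and a library number and no replicate number, so replicate numbers follow column order and are names only. All 49 members are described by role. Values in every library are given for a panel of 15 members, and the 2 largest rises and 2 largest falls among called members are named in each comparison. Genes shown beside these were added after their values were seen. The members, lists and tests were chosen with earlier results of these data known. Alternatives were other pseudocounts, filters, normalizations, controls and fits, each library left out, edgeR 4.0.16 and DESeq2 1.42.0 on the recovered reads.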

Additional observations from a re-analysis of the deposited data

Results flagged for a closer look

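The departure from the sum was called below 0 for 35 of the 49 members and above 0 for none, beside 3.71% and 2.63% of all genes tested. DLGAP5 was added to the panel of 15 here because its departure was among the 2 largest called, so its own call was fixed in advance. For 12 of these 16 members, a test of the difference showed that CDK4 knockdown had another effect with CDK6 present than with CDK6 depleted. In each, the dual knockdown lay below the sum of the CDK4 and CDK6 knockdown effects on the log2 scale, with limma adjusted p-values under the threshold. The departures were -1.83 (SE 0.12) for FOXM1, -1.51 (SE 0.20) for MYBL2, -1.68 (SE 0.24) for PLK1, -0.64 (SE 0.098) for AURKA, -2.48 (SE 0.20) for DLGAP5 and -1.95 (SE 0.20) for CDC20. They were -1.56 (SE 0.27) for UBE2C, -1.77 (SE 0.21) for NCAPG, -1.87 (SE 0.16) for TOP2A, -2.64 (SE 0.19) for MKI67, -1.88 (SE 0.18) for PRC1 and -1.57 (SE 0.16) for ANLN. The other 4 were not called, at 0.01 for CDC25B, -0.30 for NCAPH2, -0.11 for WEE1 and -0.23 for STMN1. The CDK4 knockdown values of the 12 genes against controls ranged from 0.00 for AURKA to 0.58 for MKI67. The summed fibroblast markers, in which COL1A1 and COL1A2 weigh most, were highest in the dual knockdown, and their part in the departures was not tested. Nor was the part of siRNA load or of CDK6 depletion, which left 16.4% after CDK6 knockdown and 20.6% after the dual knockdown.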

How the results depend on the processing

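Across 49 genes, 10 comparisons and all alternatives, no value that was called changed sign. Counts of members called moved by more than 1.5 times only in the comparisons of NT4 with NT3 and of CDK4 knockdown with controls. NT4 against NT3 gave 7 members in the full fit, 1 with only the groups compared, and 4 to 9 with 1 library left out. CDK4 knockdown gave 20 members in the full fit, 11 with only the groups compared, 11 against NT3 alone, and 6 to 24 with 1 library left out. In the other 8 comparisons the counts stayed within 1.5 times of those reported, and the dual knockdown gave 42 to 46. Against NT3 alone or NT4 alone, knockdown left 14.4% or 10.0% of CCND1, 8.87% or 8.47% of CDK4 and 15.3% or 17.8% of CDK6, and the dual knockdown left 9.63% or 9.20% of CDK4 and 19.1% or 22.3% of CDK6. With 3 against 3 libraries the exact permutation p was 0.1, the smallest that 20 splits allow. With median centring, the median over the genes tested went from -0.03 to 0.09 in senescent controls against proliferating cells, and all 49 members were still called lower. No paired analysis was possible by replicate number because the table's columns carry no replicate number. Library numbers in the column names fall in 3 runs that each hold 1 library of every irradiated group, and a block for these runs, chosen after seeing the data, gave 14 members after CDK4 knockdown, 45 in the dual knockdown and 34 for the departure from the sum. Depth limits CDC25C, with 4 to 358 reads per library, and TROAP, NCAPH, PKMYT1 and NEK2, whose lowest libraries held 7, 10, 11 and 12 reads.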

Other observations

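Of 9 genes of Greatwall and PP2A, the phosphatase that opposes mitotic kinases, 4 rose and 1 fell in the dual knockdown, beside 22.5% higher and 21.5% lower of all genes tested. MASTL (Greatwall), the kinase that holds PP2A in check during mitosis, fell by 0.61 on the log2 scale, and PPP2R1B, a scaffold subunit of PP2A, rose by 0.47. Of 10 cohesin and loader genes 1 rose and 3 fell in the dual knockdown, with differences between -0.29 and 0.19, beside the same shares of all genes tested. RAD21, the kleisin subunit of cohesin, fell by 0.29. Of the condensin subunits, NCAPH of condensin I changed by -2.33 and NCAPH2, the kleisin of condensin II, by 0.04, which was not called. Differences between these genes were not tested.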
